A study of Mus musculus with 6 samples.

Results

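The Hox clusters of mouse lung endothelial cells were examined by ATAC-seq, an assay that cuts and tags open DNA with the enzyme Tn5. A region of the deposited table belonged to a Hox gene where the gene symbol in the table, or the nearest protein-coding start site within 100 kb for a region with no gene, was a member of the Hoxa, Hoxb, Hoxc or Hoxd cluster. This took 33 of 58172 regions, 29 by the table's symbol and 4 by distance, and they named 23 of the 39 Hox genes of RefSeq. The closest region beyond the distance limit lay 205.6 kb from Hoxb2, with values of 6 to 15 in WT against 12 to 25 in CSE-KO, and the farthest region within it lay 63.4 kb from Hoxb2.

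The study held 2 groups of 3 libraries. WT libraries were labelled Cre-negative. CSE-KO libraries were labelled Cre-positive and knockout for CSE, the enzyme cystathionine gamma-lyase encoded by Cth. The sources used here give no age, sex, strain, promoter driving Cre or pooling of animals. Cre and the loss of CSE differ between the groups together and cannot be told apart. The labels do not say that libraries came from separate mice, so a p-value reflects the spread among these libraries alone, which may be technical.

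Hox genes encode homeodomain transcription factors that set position along the body axis of the embryo. They stand in clusters in which all genes point the same way, with low-numbered genes at the 3′ end, expressed early and toward the head, and high-numbered genes at the 5′ end, expressed later and toward the tail. Adult cells, endothelium included, keep a part of this pattern, with silent genes held by Polycomb proteins and active genes marked by Trithorax proteins. In the lung Hoxa5 is known for its role in development, and Hoxa3, Hoxa9 and Hoxd3 have been studied in endothelial cells.

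The promoter sequences give the CpG content of Hox start-site windows with and without an accessible region over them. RefSeq windows of 300 bases (GRCm38.p6, the assembly behind mm10), from 250 bases before to 50 after a start site, were matched by symbol for 22 Hox genes, in 24 windows. Of these, 8 were touched by an accessible region and held 20 to 37 CpG, with a median of 23.5. The 16 windows without a region had a median of 11 and a range of 4 to 45, and all 32851 RefSeq windows a median of 7. The highest count, 45, was that of Hoxa13, whose window was touched by no region. The 16 also hold windows of Hoxd8 (6 CpG), Hoxa10 (12) and Hoxb4 (14). Beside each of these lay a region with its centre within 1 kb of the start site. The 250 bases before the start site are shown for 4 genes that the results turn on, Hoxa5 and Hoxa3 in the part of Hoxa where values were higher in CSE-KO, Hoxd10 as an open posterior gene and Hoxd13 as the promoter that fell. The Hoxd13 region begins at 74668222 and the Hoxa5 region, on the minus strand, ends at 52204630. Most of the bases printed for these 2 genes thus lie outside their accessible regions. Capitals mark each CpG, and every sequence reads 5′ to 3′ on the strand of the gene.
Hoxa5 (chr6:52204588-52204837, minus strand): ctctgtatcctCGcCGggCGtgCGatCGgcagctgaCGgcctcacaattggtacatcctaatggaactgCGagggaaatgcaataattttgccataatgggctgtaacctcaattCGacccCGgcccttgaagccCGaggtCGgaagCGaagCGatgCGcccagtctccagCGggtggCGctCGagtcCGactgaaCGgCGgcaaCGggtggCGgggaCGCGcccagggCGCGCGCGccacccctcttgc
Hoxa3 (chr6:52213068-52213317, minus strand): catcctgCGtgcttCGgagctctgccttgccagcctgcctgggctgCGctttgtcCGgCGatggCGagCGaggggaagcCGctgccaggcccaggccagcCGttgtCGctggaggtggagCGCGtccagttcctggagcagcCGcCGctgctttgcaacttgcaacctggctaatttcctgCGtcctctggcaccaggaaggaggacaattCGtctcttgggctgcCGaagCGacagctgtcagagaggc
Hoxd10 (chr2:74691641-74691890, plus strand): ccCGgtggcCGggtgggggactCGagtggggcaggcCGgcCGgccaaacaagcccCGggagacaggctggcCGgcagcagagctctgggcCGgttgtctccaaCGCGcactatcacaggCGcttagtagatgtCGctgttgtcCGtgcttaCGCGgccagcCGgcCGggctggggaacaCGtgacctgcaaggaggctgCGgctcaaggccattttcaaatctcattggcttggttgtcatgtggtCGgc
Hoxd13 (chr2:74667975-74668224, plus strand): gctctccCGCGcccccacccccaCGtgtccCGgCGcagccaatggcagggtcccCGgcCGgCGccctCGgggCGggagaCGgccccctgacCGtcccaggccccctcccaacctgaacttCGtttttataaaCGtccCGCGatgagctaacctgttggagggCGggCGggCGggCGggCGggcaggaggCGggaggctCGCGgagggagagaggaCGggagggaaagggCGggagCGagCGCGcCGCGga

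These stretches hold 28, 18, 20 and 31 CpG in that order. Within the full windows, AGGTCA, a core motif of nuclear receptors, was present at Hoxa5 and Hoxd10. It was in 29.2% of Hox windows and 16.3% of all windows, searched on both strands. AGGGGGC, a part of the CTCF motif, was present at Hoxd13 in 2 copies, and in 8.33% of Hox and 10.6% of all windows. The combined Hox and Pbx motif TGATNNAT was in 16.7% of Hox and 8.85% of all windows, and the homeodomain motif TAATTA in 8.33% and 5.29%. Both were present in 1 of the Hoxd11 windows, the one its region overlaps. The ETS motif CCGGAAG was in 0 of 24 Hox windows and in 8.86% of all windows. A motif match describes the letters and not a bound site.

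The values are whole numbers that look like reads divided by a size factor per library and then rounded, and they are used here as a score. They summed to between 5242490 and 5547417 per library. In the CSE-KO columns 61, 65 and 61 of the whole numbers from 1 to 100 occur, so that 1 read was worth about 1.64, 1.54 and 1.64, while in WT all 100 occur, so that 1 read was worth at most about 1. The same value thus rests on fewer reads in CSE-KO, and weak Hox regions are less precise there. The region at the start site of Cth, which checks the labels, had 173 ± 19.7 in WT against 6.33 ± 4.51 in CSE-KO (SD, n = 3 each). Promoter regions were present for 9 of 10 endothelial markers, Cdh5, Kdr, Tek and Cldn5 among them, but not for Pecam1.

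Accessibility of Hox genes in WT spanned a wide range and differed between clusters. A gene was called open where its most accessible region reached the median of all tested regions, 118 per kb of region width, and weak where that region was in the lowest 25%, below 74 per kb. Of 39 genes, 13 were open, 8 lay between, 2 were weak and 16 had no region. Open genes made up 6 of 9 in Hoxd, 4 of 11 in Hoxa, 3 of 10 in Hoxb and 0 of 9 in Hoxc. A gene without a region is one to which none was assigned. Its span can still hold a region given to another or an unnamed gene, as for RefSeq Hoxa9 (1 region), Hoxc9 (1) and Hoxb3 (3). For the others the table says only that none was listed there.

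In Hoxa, Hoxa3 (204 per kb), Hoxa7 (156) and Hoxa5 (152) were open, and Hoxa4 (99) and Hoxa10 (89.3) lay between. Hoxa13, the 5′ gene of distal limb and genital tract, was weak at 66.4. That level is of a region 3.68 kb from its start, over no RefSeq gene. Hoxa7 and Hoxa5 overlapped over the WT libraries. Hoxa2, Hoxa6, Hoxa9 and Hoxa11 had no region of their own.

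In Hoxd the order ran the other way in part. Hoxd9 (232 per kb) and Hoxd10 (216), 5′ genes known from limb and spinal cord, were the most accessible, close to Hoxd4 (196), Hoxd8 (191) and Hoxd3 (178). Hoxd13 was open at 140, Hoxd11 (91) and Hoxd1 (76.2) lay between, and Hoxd12 had no region. Each gene in this order from Hoxd9 to Hoxd3 overlapped the next over the WT libraries. The level of Hoxd4 is that of a region over RefSeq Hoxd3, 4.12 kb from the table's Hoxd4 start. That of Hoxd3 comes from a region 3.03 kb from the table's Hoxd3 start, over no RefSeq Hox gene. The region over the RefSeq Hoxd3 start, assigned to Hoxd4, had 159.

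Hoxb was less accessible. Hoxb4 (191 per kb), Hoxb2 (136) and Hoxb5 (125) were open by this rule. The level of Hoxb2 is that of a region 63.4 kb away, beyond Hoxb1, and its region at 2.77 kb had 66.4 per kb. The level of Hoxb5 is that of a region in RefSeq Hoxb6, and its own promoter region had 74.4. Genes between were Hoxb8 (103), Hoxb6 (88.7) and Hoxb7 (82.5). Hoxb1, Hoxb3, Hoxb9 and Hoxb13 had no region of their own. In Hoxc only the 5′ end was listed. The region in RefSeq Hoxc9, 45.1 kb from Hoxc12, gave Hoxc12 its level of 101 per kb, while the region 1.6 kb from Hoxc12 had 63.4, under the limit for weak genes. Hoxc13, a gene of hair and nail, was weak at 52.9. Hox promoter regions were narrower and weaker than promoters at large, with a median width of 535 bp against 765 bp and a median of 156 per kb against 179.

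**Figure D1:**
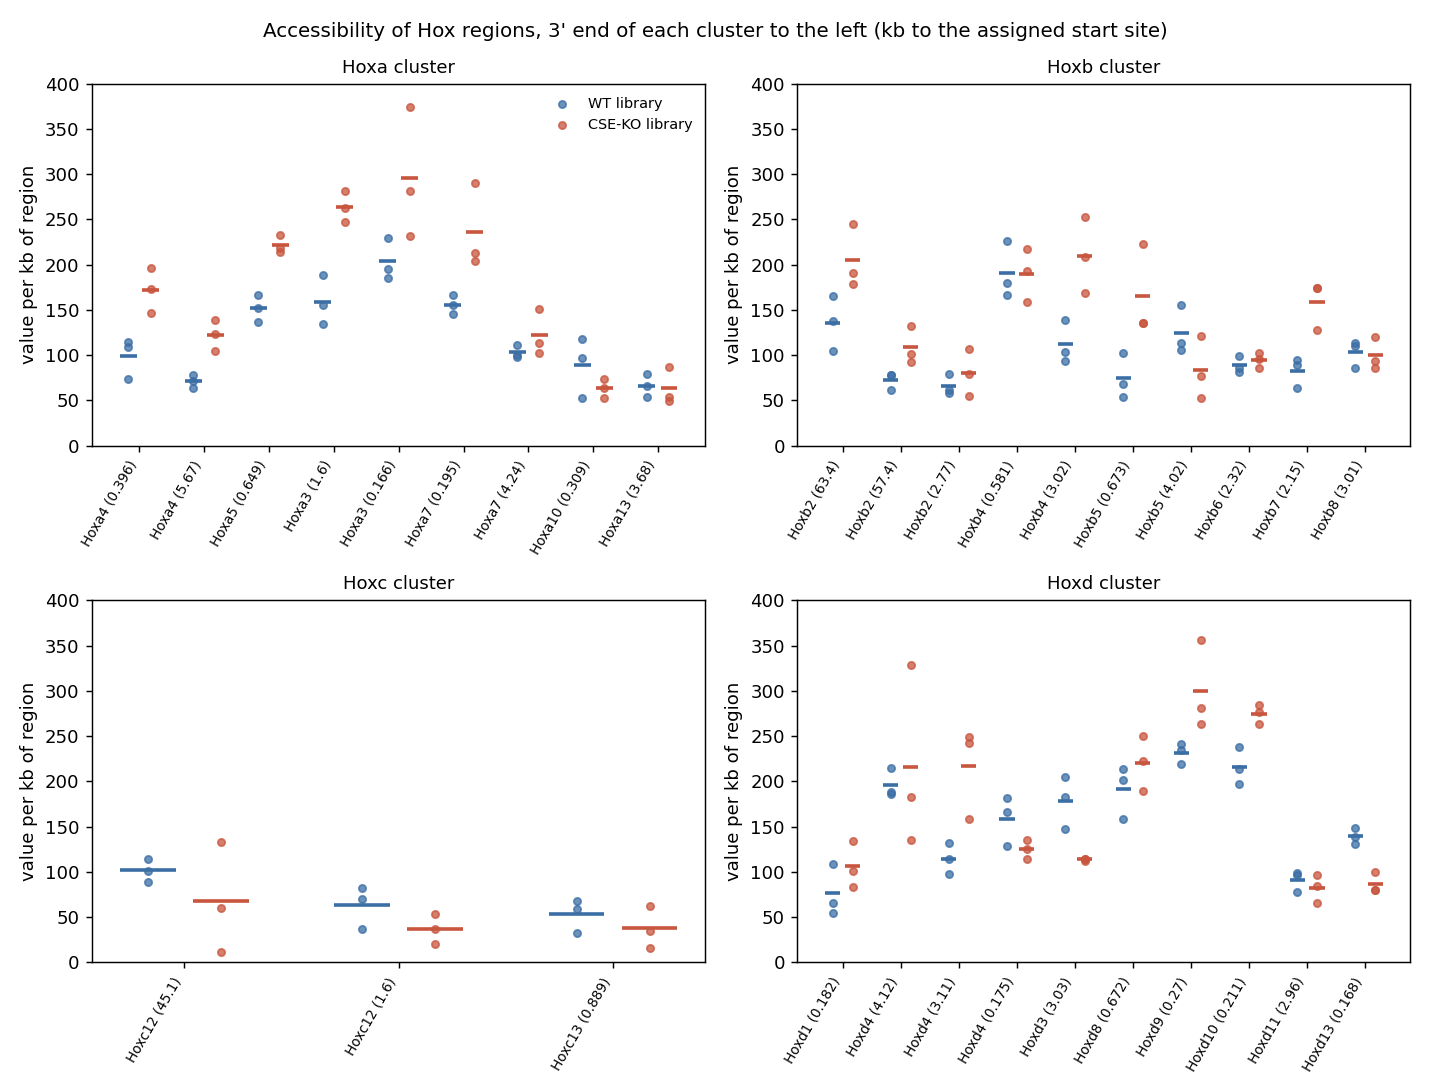
Values per kb of region width (vertical axis) of 32 Hox regions, in 4 panels by cluster and ordered from the 3′ end (left), each labelled with its gene and the kb to the start site. Points are single libraries, WT in blue and CSE-KO in red, and short lines are group means. Hoxd9 and Hoxd10 stand highest in WT among those shown, at 232 and 216, and the WT means of the 3 Hoxc regions stay at or below 101.

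The names need care, since gene models in the clusters overlap. Set against RefSeq, 16 of the 33 regions lay over the gene they were assigned to, 10 over another Hox gene only, and 7 over none. The region 4.24 kb from the table's Hoxa7 start lay in Hoxa9, the Hoxc12 region 45.1 kb away in Hoxc9, the Hoxb7 region in Hoxb8, and the Hoxb5 region 4.02 kb away in Hoxb6. The 3 Hoxd4 regions lay over Hoxd3. Both Hoxa3 regions lay at the most upstream Hoxa3 start, between Hoxa6 and Hoxa7, so that the span of Hoxa3 runs over Hoxa4, Hoxa5 and Hoxa6.

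The comparison of CSE-KO with WT asked where loss of CSE goes with a change in open chromatin at Hox genes. All 33 regions passed the filter (a mean value of at least 5). By limma on log2(value + 1), with Benjamini-Hochberg adjustment over all 58129 tested regions at 0.05, 6 Hox regions rose, 1 fell and 26 were not called. The 7 calls are 21.2% of Hox regions, against 17.3% of all tested regions. Among all regions 7.7% were higher and 9.6% lower. By position, 2 of 15 Hox promoter regions were called (8.52% of all promoter regions) and 5 of 18 distal ones (19.9% of all distal regions). A promoter region has its centre within 1 kb of a start site. The share of Hox regions called is therefore near the background.

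The direction leaned upward. The median log2 change was 0.22 over Hox regions, with 21 above 0 and 12 below, against -0.00 over all tested regions. It was 0.35 at Hox promoters and 0.11 at all promoters, and 0.15 at Hox distal regions and -0.06 at all distal regions. All CSE-KO libraries lay above all WT libraries at 14 Hox regions and below at 2, or 48.5% without overlap against 39.5% of all regions. The calls were fragile to the choice of libraries. Leaving out 1 library in each of 42 fits (6 libraries, 7 called regions) kept 5 calls and ended 37, with adjusted p from 0.0519 to 0.137 for those that ended, and no change of sign. With any WT library left out, or with CSE-KO replicate 2 left out, 0 Hox regions were called by limma in either direction, though 11 to 13 had an unadjusted p under 0.05. Without CSE-KO replicate 1, 2 rose and 0 fell, and without CSE-KO replicate 3, 2 rose and 1 fell. With limma's trend and robust options 11 rose and 2 fell.

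**Figure D2:**
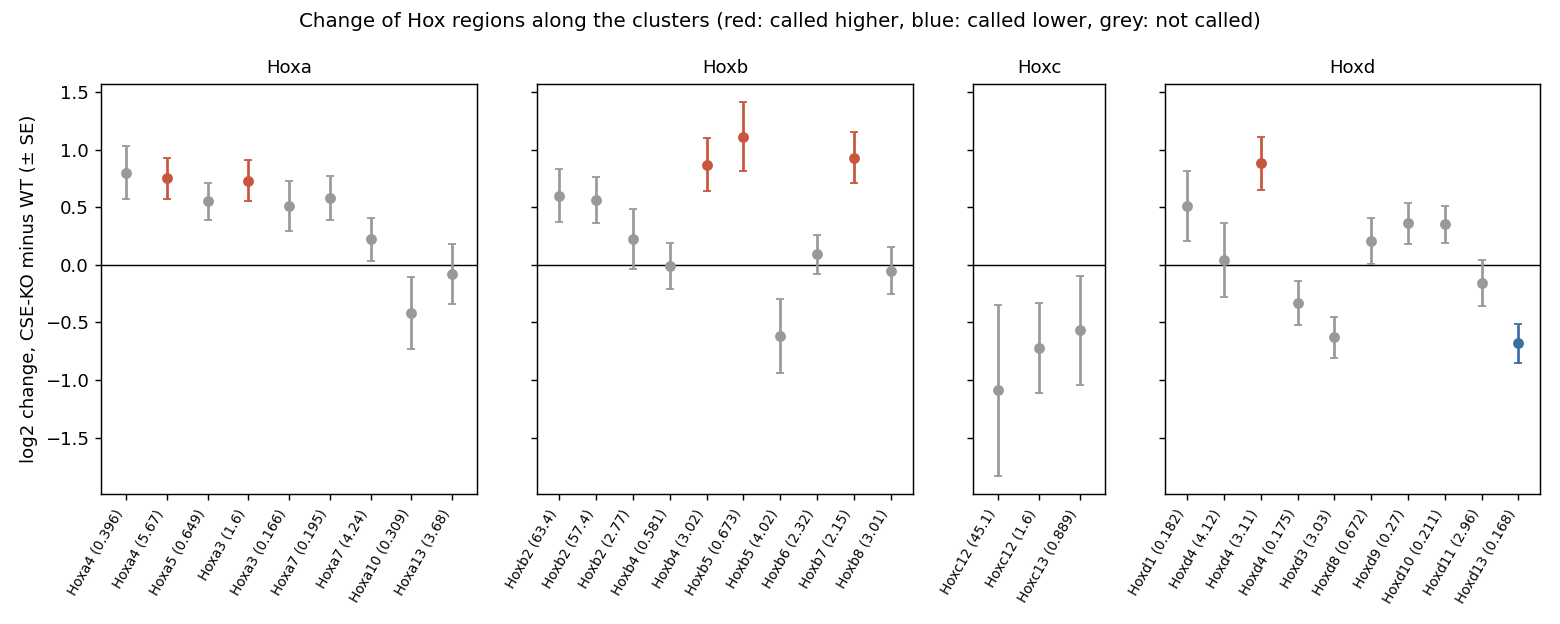
The fitted log2 change, CSE-KO minus WT, with its SE (vertical axis) for 32 Hox regions, by cluster and from the 3′ end (left), labelled with the gene and the kb to the start site. Red points were called higher (6), blue lower (1) and grey not called (25). From the Hoxa4 to the Hoxa7 regions every point is above 0, and the 3 Hoxc points are below 0.

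Hoxa held a run of regions with higher values in CSE-KO. The 7 regions assigned to Hoxa3, Hoxa4, Hoxa5 and Hoxa7 all had a positive change, from 0.22 to 0.80, and 2 of them were called. The region 5.67 kb from Hoxa4, between Hoxa4 and Hoxa5 (chr6:52197286-52197553), had 21, 17 and 19 in the WT libraries against 33, 37 and 28 in the CSE-KO libraries. The groups did not overlap, and the region rose 1.68-fold (log2 0.75 ± 0.18 SE, adjusted p = 0.0324 by limma). With trend and robust options its adjusted p was 0.0834.

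The region 1.6 kb from the table's Hoxa3 start (chr6:52211475-52211990) had 69, 80 and 97 in WT against 145, 127 and 135 in CSE-KO. Every CSE-KO library lay above every WT library, and the region rose 1.66-fold (log2 0.73 ± 0.18 SE, adjusted p = 0.0372 by limma). The promoter region of Hoxa3 beside it had 130, 161 and 137 in WT against 162, 262 and 197 in CSE-KO. The groups came within 1 of each other there, and the change was not called (log2 0.51 ± 0.22, adjusted p = 0.15 by limma).

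Around these, 3 further promoters had higher values but missed the threshold. Hoxa4 had 35, 52 and 55 in WT against 83, 70 and 94 in CSE-KO at its promoter (log2 0.80 ± 0.23 SE, adjusted p = 0.0524 by limma). Hoxa5 had 211, 190 and 231 in WT against 322, 297 and 303 in CSE-KO (log2 0.55 ± 0.16 SE, adjusted p = 0.0572 by limma). Neither gene's groups overlapped, and both promoters were called with a pseudocount of 5, with a filter at a mean of 20, and with trend and robust options (adjusted p = 0.038, 0.0312 and 0.0129 for Hoxa4 and 0.0487, 0.0384 and 0.00296 for Hoxa5). At the table's Hoxa7 start, 3.08 kb from the RefSeq start, the libraries had 79, 74 and 69 in WT against 101, 138 and 97 in CSE-KO (adjusted p = 0.0823 by limma).

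Beyond the table's Hoxa7 start, toward the 5′ end of Hoxa, the groups overlapped. The region in Hoxa9 (assigned to Hoxa7) had 47.3 ± 3.21 and 56 ± 11.5 (adjusted p = 0.462 by limma, SD, n = 3 each). Hoxa10, a 5′ gene of limb and uterus, had 25, 46 and 56 in WT against 25, 35 and 30 in CSE-KO at its promoter. The region 3.68 kb from Hoxa13 had 13, 16 and 19 against 13, 12 and 21. Neither was called (adjusted p = 0.378 and 0.849 by limma).

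In Hoxb, 3 of 10 regions rose and 0 fell, all in the central group of paralogs. The region 2.15 kb from Hoxb7, within RefSeq Hoxb8 (chr11:96284259-96284683), had 40, 27 and 38 in WT against 54, 74 and 74 in CSE-KO. It rose 1.9-fold without overlap (log2 0.93 ± 0.22 SE, adjusted p = 0.0326 by limma). The promoter region of Hoxb5, a gene of shoulder and lung airway patterning (chr11:96303906-96304112), had 11, 21 and 14 in WT against 46, 28 and 28 in CSE-KO. It rose 2.15-fold (log2 1.11 ± 0.30 SE, adjusted p = 0.0439 by limma), the largest positive change of the 33 regions, at a low level. It lies inside the Hoxb5 gene, on 206 bp.

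Beside Hoxb4, studied in blood stem cells, a region 3.02 kb from the start (chr11:96315142-96315344) had 28, 19 and 21 in WT against 42, 51 and 34 in CSE-KO. It rose 1.83-fold (log2 0.87 ± 0.23 SE, adjusted p = 0.0398 by limma). The Hoxb4 promoter region did not follow, at 89, 96 and 121 in WT against 103, 116 and 85 in CSE-KO (log2 -0.01 ± 0.20 SE, adjusted p = 0.981 by limma). Whether the change differed between these neighbouring regions was not tested.

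The other Hoxb regions were not called. The 2 regions beyond Hoxb1, assigned to Hoxb2 from 57.4 and 63.4 kb away, had 30.7 ± 4.04 and 97.7 ± 22 in WT against 46 ± 8.89 and 147 ± 25.5 in CSE-KO (SD, n = 3 each). Their groups did not overlap (adjusted p = 0.0996 and 0.116 by limma), and the second was called with trend and robust options (adjusted p = 0.0233). The region in Hoxb6 assigned to Hoxb5 had 40, 43 and 59 in WT against 20, 29 and 46 in CSE-KO, the only Hoxb region more than 0.1 lower (log2 -0.62 ± 0.32 SE, adjusted p = 0.211 by limma). Regions of Hoxb2, Hoxb6 and Hoxb8 within 3.01 kb of their start had 19.3 to 31 in WT against 23.3 to 30 in CSE-KO on average.

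Hoxd had calls in both directions. The promoter of Hoxd13, the most 5′ gene of its cluster and known for digits (chr2:74668222-74668733), whose upstream bases are shown above, had 76, 67 and 71 in WT against 41, 41 and 51 in CSE-KO. Every CSE-KO library lay below every WT library, and the region fell 1.6-fold (log2 -0.68 ± 0.17 SE, adjusted p = 0.036 by limma). It was the only Hox region called lower. The region between Hoxd8 and Hoxd3 (assigned to Hoxd3, 3.03 kb) had 93, 83 and 67 in WT against 52, 51 and 52 in CSE-KO, and narrowly missed the threshold (log2 -0.63 ± 0.18 SE, adjusted p = 0.0528 by limma). It was called lower with a pseudocount of 5, a filter at 20, quantile normalization, and trend and robust options (adjusted p = 0.0335 to 0.0476).

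A region 3.11 kb from the table's Hoxd4 start, over RefSeq Hoxd3 and Hoxd3os1 (chr2:74714890-74715187), rose. It had 29, 39 and 34 in WT against 47, 72 and 74 in CSE-KO, a 1.84-fold rise (log2 0.88 ± 0.23 SE, adjusted p = 0.0414 by limma). The next region, 4.12 kb from that start, had 81, 70 and 71 in WT against a scattered 124, 51 and 69 in CSE-KO (adjusted p = 0.946 by limma). The region at the table's Hoxd4 start lies over the RefSeq start of Hoxd3. It had 63, 89 and 81 in WT against 56, 61 and 66 in CSE-KO (adjusted p = 0.261 by limma). Reads over overlapping sense and antisense genes cannot be given to one of them by ATAC-seq, which has no strand.

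The open promoters of Hoxd8 to Hoxd10 were not called. Hoxd10 had 265, 320 and 287 in WT against 382, 355 and 372 in CSE-KO, without overlap (log2 0.35 ± 0.16 SE, adjusted p = 0.17 by limma), and was called higher with trend and robust options (adjusted p = 0.0311). Hoxd9 had 179, 167 and 184 against 201, 214 and 272, also without overlap (adjusted p = 0.202 by limma). Hoxd8, Hoxd11 and Hoxd1 had overlapping groups, with log2 changes of 0.21, -0.16 and 0.51 (adjusted p = 0.497, 0.627 and 0.278 by limma).

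Hoxc had 3 regions with low values and 0 calls by limma, also at an unadjusted p under 0.05. Hoxc13 had 12, 25 and 22 in WT against 13, 6 and 23 in CSE-KO, and the region 1.6 kb from Hoxc12 had 17, 9 and 20 against 5, 9 and 13. The region in Hoxc9 (assigned to Hoxc12) had 44, 50 and 39 in WT against 5, 58 and 26 in CSE-KO, so that 1 CSE-KO library lay above all WT libraries and 1 far below. The log2 changes, -0.57, -0.72 and -1.09, are within 2 SE of 0 (SE 0.47, 0.39 and 0.74). The Hoxb5 promoter, also low in WT, was called for a rise. Whether a fall from values this low could be called was not tested.

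A division by position, chosen after the values were seen, puts these results together. Of the regions, 12 lay on the 5′ side of paralogs 1 to 8 by RefSeq spans (for Hoxa, beyond Hoxa7) and 21 on the 3′ side. The regions assigned to Hoxa7, part of the Hoxa run of higher values, lie beyond RefSeq Hoxa7 and so count as 5′. The 3′ side had 6 higher and 0 lower calls (28.6% called), 17 positive and 4 negative changes and a median log2 change of 0.51. The 5′ end had 0 higher calls and 1 lower (8.33% called), 4 positive and 8 negative changes and a median of -0.12. Of all tested regions 17.3% were called, 7.7% higher and 9.6% lower. All Hox regions called higher were on the 3′ side, which also held more of the Hox regions. The contrast in calls was not seen at promoter regions. There 1 of 9 was called on the 3′ side (11.1%) and 1 of 6 at the 5′ end (16.7%), against 8.52% of all promoter regions. Their median log2 changes were 0.51 and -0.04. Whether the sides differ was not tested, and the 3 Hoxc regions are all at the 5′ end. In Hoxa the medians were 0.64 and 0.07, and in Hoxd 0.12 and 0.10.

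Summed over its regions, each of the larger clusters was higher in CSE-KO. Hoxa summed to 960, 1069 and 1068 in WT against 1327, 1474 and 1346 in CSE-KO over 6228 bp, a ratio of 1.34. Hoxb summed to 391, 430 and 460 against 508, 596 and 548 over 3773 bp, a ratio of 1.29. Hoxd summed to 1101, 1184 and 1137 against 1235, 1223 and 1394 over 6860 bp, a ratio of 1.13. In none of the 3 did the groups overlap. The 3 Hoxc regions, over 1051 bp, summed to 73, 84 and 81 against 23, 73 and 62, with overlap at 73. These sums are descriptions and carry no test.

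**Figure D3:**
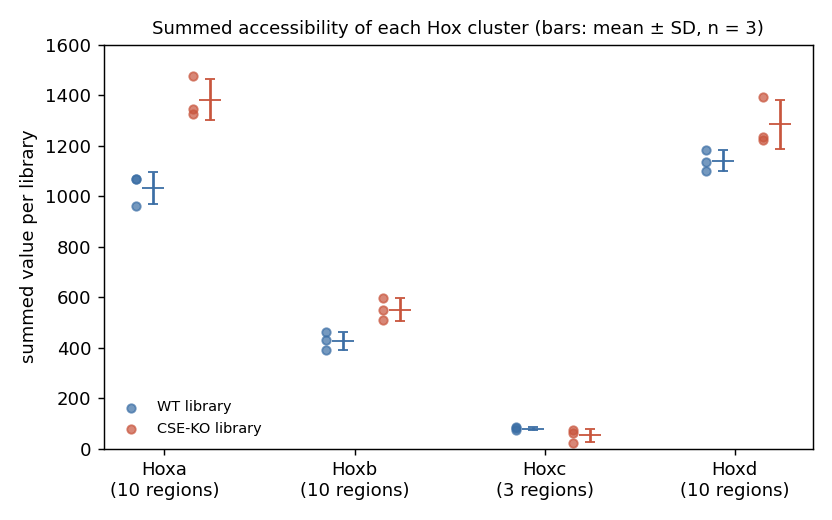
The summed value of each cluster's regions in every library (vertical axis), WT in blue and CSE-KO in red, with the mean ± SD of 3 libraries beside the points. The groups stand apart in Hoxa, Hoxb and Hoxd, with ratios of 1.34, 1.29 and 1.13, and meet in Hoxc.

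Markers of other lung cells were set beside these values, since other cell types carry their own Hox pattern. Promoter regions were present for 3 of 8 mural and fibroblast markers, Col1a1, Pdgfrb and Acta2, and not for Pdgfra, Col1a2, Cspg4, Tcf21 and Tbx4. Their summed value was 154 to 159 in WT against 228 to 263 in CSE-KO. Among them the Col1a1 promoter rose, with 62.3 ± 10.1 and 134 ± 27 (SD, n = 3 each, adjusted p = 0.0176 by limma), and Pdgfrb and Acta2 were not called. Lung epithelial markers had a promoter region for 2 of 8 (Epcam and Foxj1) and summed to 128 to 164 and 131 to 189, and leukocyte markers for 2 of 8 (Spi1 and Cd68) with 247 to 284 and 175 to 186. Of these, the Epcam promoter rose 1.85-fold, from 25.3 ± 2.89 to 48.3 ± 11 (SD, n = 3 each, adjusted p = 0.0353 by limma), and the Spi1 promoter fell 1.7-fold (adjusted p = 0.0261 by limma). The 9 endothelial promoters summed to 1254 to 1316 and 1343 to 1490, with Tek and Kdr called higher and Tie1 and Egfl7 lower. The part of other cells in the Hox values was not tested.

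Genes that work with or control Hox genes were listed apart from the clusters, in 6 lists of 112 genes, of which 91 had a region. Hox cofactors, the TALE homeodomain proteins that bind DNA with Hox proteins, had 4 regions higher and 0 lower of 27, or 14.8% called against 17.3% of all tested regions, with a median log2 change of 0.11. A region 16.7 kb from Pbx4 had 12, 14 and 13 in WT against 56, 43 and 34 in CSE-KO (3.18-fold, adjusted p = 0.00568 by limma). A region 92.5 kb from Meis1 had 17, 19 and 12 against 80, 51 and 54 (3.67-fold, adjusted p = 0.00638 by limma). The Meis3 promoter rose 2.05-fold, from 26.7 ± 4.93 to 55.7 ± 9.07 (SD, n = 3 each).

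Polycomb genes, which keep silent Hox genes closed, had 5 regions higher and 3 lower of 95, or 8.42% called against 17.3% of all regions, and a median of 0.03. A region 42.3 kb from Eed, a core subunit of Polycomb repressive complex PRC2, had 256, 277 and 200 in WT against 60, 98 and 74 in CSE-KO, a 3.17-fold fall. The Eed promoter had higher values in CSE-KO without overlap, 392, 343 and 348 against 526, 539 and 458, and was not called (log2 0.49 ± 0.16 SE, adjusted p = 0.0802 by limma). Of the 26 Polycomb promoter regions 1 was called, or 3.85% against 8.52% of all promoter regions. It was that of Ezh1, which rose from 43.7 ± 3.51 to 79.3 ± 11.6 (SD, n = 3 each, adjusted p = 0.0227 by limma). A region 68.8 kb from Rybp fell 2.61-fold and one 42.5 kb from Pcgf5 rose 1.93-fold. Both genes encode parts of PRC1 complexes. A further list held Trithorax genes, associated factors such as Aff1 and Mllt3, and H3K27 demethylases. Of its 57 regions 4 were higher and 3 lower, or 12.3% called against 17.3%, with a median of 0.13. Aff1 gave 3 of the higher calls, Mllt3 1 higher and 2 lower, and Wdr5 1 lower. Kmt2a, Kmt2b, Kmt2c, Kmt2d, Men1, Ash2l, Kdm6a and Kdm6b had 0 calls. Regions 99.5 kb from Mllt3 and 78.4 kb from Wdr5 fell 2.61-fold and 2.94-fold, and one 82.5 kb from Aff1 rose 2.07-fold. Mllt3 had calls in both directions, since a region 48.5 kb away rose 2.12-fold and one 29.9 kb away fell 1.9-fold. Of the 16 promoter regions in the Trithorax list 0 were called by limma, against 8.52% of all promoter regions, and 4 had an unadjusted p under 0.05.

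Retinoic acid, which turns on 3′ Hox genes in the embryo, and the Cdx factors had 3 regions higher and 8 lower of 68, or 16.2% called against 17.3%, with a median of -0.12. The region 13.7 kb from Dhrs3, a retinal reductase that lowers retinoic acid, had 319, 239 and 248 in WT against 64, 52 and 39 in CSE-KO (5.18-fold lower, adjusted p = 0.00309 by limma). Dhrs3 gave 5 of the 8 lower calls. A region 71.8 kb from Rarb, a retinoic acid receptor, had 1, 3 and 4 in WT against 42, 21 and 13 in CSE-KO, while one 12.8 kb from Rarb fell 2.08-fold. A region 61.1 kb from Cdx1 had 51.7 ± 16.3 and 16.7 ± 7.51 (SD, n = 3 each). CTCF and cohesin genes, which shape the loops of the clusters, had 3 higher and 0 lower of 23, or 13% called against 17.3%, with a median of 0.06. All 3 calls were regions of Nipbl, the loader of cohesin. Of its 2 promoter regions, the one 0.544 kb from the start rose 1.95-fold, from 103 ± 11.5 to 204 ± 41.3, and the larger one had 311 ± 20 and 386 ± 45.3 and was not called (SD, n = 3 each, adjusted p = 0.244 by limma). The regions nearest to a call at Stag2 and Ctcf had log2 changes of -0.45 and -0.43 (adjusted p = 0.104 and 0.108 by limma).

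Genes that flank the clusters had 13 regions higher and 5 lower of 64, or 28.1% called against 17.3% of all regions, with a median of 0.16. The homeobox genes Evx1 and Evx2 had no call, with log2 changes of -0.72 and -1.45 at Evx1 and -1.31 at Evx2 (adjusted p = 0.0596, 0.164 and 0.06 by limma). Regions 10.3 kb from Tax1bp1 and 45.4 kb from Hibadh had 6 ± 3 and 11.7 ± 1.53 in WT against 53.7 ± 14.6 and 37 ± 6.93 in CSE-KO. The region 3.98 kb from Snx10 had 0, 3 and 1 in WT against 10, 20 and 48 in CSE-KO. These genes lie on chromosome 6, as Hoxa does, and the 3 regions were weak in WT, at or below 55.8 per kb. Hibadh gave 6 of the 13 higher calls, and the Snx10 promoter also rose, 1.84-fold (adjusted p = 0.0373 by limma). The promoter regions of Pbx4, Meis1, Rybp, Pcgf5, Mllt3, Aff1, Wdr5, Dhrs3, Rarb, Tax1bp1 and Hibadh, genes named above for a more distant region, were not called.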

How the data were processed

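ATAC-seq values of 6 libraries of mouse lung endothelial cells, WT and CSE-KO with 3 each, were used, with groups and replicate numbers from the titles. The deposited score per region and library is a whole number that the authors appear to have scaled per library, judged from the values. Per the submitters' processing notes, which give no roles, the tools were DESeq2 1.26.0, Picard 3.1.1, STAR 2.7.3a and Trimmomatic 0.39, and the build was mm10. The sources used here name no peak caller and no Tn5 shift. Since scores are not counts, no count model was run.

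limma 3.58.1 (R 4.3.3, trend and robust off) was fitted to log2(score + 1) for the 58129 regions whose mean reached 5, with all 6 libraries and no covariate, and checked on simulated data. Fold changes are on that scale and understate changes of weak regions. Other pseudocounts, filters, scalings, assignments and left-out libraries were tried. Every called or promoter Hox region, in each cluster the highest and lowest level per kb and the 2 smallest p, up to 3 genes per list by p, and Cth were named by rule. 1 Hox region is not reported here by name or plotted singly, though counts and sums include it. Other Hox, listed-gene and marker regions were named after their values were seen. The members and lists were chosen with earlier results of these data known. RefSeq tables (GRCm38.p6) gave gene spans and promoter windows, and summaries used Python 3.11.15.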

Additional observations from a re-analysis of the deposited data

How the results depend on the processing

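The count of Hox regions called depended on the spread estimate and on single libraries. Against 6 higher and 1 lower, trend and robust options gave 11 and 2 (15448 in place of 10057 over all regions), and the count of lower regions was 2 with a pseudocount of 5, a filter at a mean of 20 or quantile normalization. Leaving out 1 library gave 0 to 2 higher, 0 to 1 lower, 3519 to 8922 over all regions and a median log2 change of 0.20 to 0.32, in place of 0.22. The gene assignments tried (symbols alone, start sites within 20 kb, and all 39 regions inside the RefSeq clusters, the last chosen after the data were seen) gave 5 to 7 higher and 1 lower. The cluster ratios moved by less than their spread in all settings run. Counted over each pair of a single Hox region and an alternative setting, a call was lost in 45 pairs and gained in 14. In 0 pairs did a called change reverse sign. Same-numbered libraries did not deviate together (correlations of -0.006, -0.011 and 0.01). The labels do not say whether they were prepared together, and the correlations cannot settle this. With a replicate block 0 Hox regions were called by limma (12 higher and 3 lower at an unadjusted p under 0.05) and 6013 over all regions. CSE-KO values rest on fewer reads, and the part of depth in the regions not called was not tested.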

Other observations

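Within the RefSeq spans of the clusters lay 8 more regions that the table gives to other or unnamed genes, and 1 of them was called. It lies in Haglr, the antisense RNA between Hoxd3 and Hoxd1 (chr2:74749326-74749976), and had 41, 34 and 54 in WT against 80, 86 and 103 in CSE-KO. The groups did not overlap, and the region rose 2.09-fold (log2 1.06 ± 0.22 SE, adjusted p = 0.0203 by limma), close in size to the rise at the Hoxb5 promoter. Its level in WT, 66.2 per kb, was below the limit for weak genes used above.

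The region over RefSeq Hoxa7, given to Gm28308 in the table, had 71, 54 and 60 in WT against 91, 109 and 87 in CSE-KO, without overlap (log2 0.63 ± 0.18 SE, adjusted p = 0.0571 by limma). It lies in the run of higher values from Hoxa4 to Hoxa7. In Hoxd, the region over RefSeq Hoxd4, given to Gm28230, had 95, 83 and 87 in WT against 69, 47 and 57 in CSE-KO, without overlap and in the opposite direction (log2 -0.62 ± 0.19 SE, adjusted p = 0.066 by limma). Neither region was called.

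The other 5 had overlapping groups. A region over Hoxb3 had 74.3 ± 17.2 in WT against 96 ± 11.3 in CSE-KO, and one over the RefSeq gene Gm53 had 20.7 ± 6.11 and 28 ± 2.65 (SD, n = 3 each). Over all 8 regions the median log2 change was 0.32, with 5 positive and 3 negative.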
